A study of Rattus norvegicus with 2 samples.

Results

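The small leucine-rich proteoglycans of bone matrix were represented by 8 genes: decorin (Dcn), biglycan (Bgn), asporin (Aspn), lumican (Lum), fibromodulin (Fmod), prolargin (Prelp), osteomodulin (Omd) and osteoglycin (Ogn). They were looked for by name among transcript models assembled from rat femur RNA, ignoring case and after removal of the endings that mark predicted or mapped genes. In this way 7 of the 8 genes were found, with 12 of the 43391 transcripts and among 12567 gene names. The share of all rat genes that can be found by name is not given here, so 7 of 8 has no background share beside it. Asporin was not found by name.

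Small leucine-rich proteoglycans are secreted proteins built from leucine-rich repeats, many of which carry chondroitin, dermatan or keratan sulfate chains. They bind collagen fibrils and set their diameter and spacing, and several also hold growth factors such as TGF-β in the matrix. In bone they are made by cells of the osteoblast lineage and lie in the organic matrix on which mineral is laid down.

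RNA-seq was performed on total RNA from femurs of female wild-type Wistar rats. The OVX group had both ovaries removed, which is a model of bone loss after menopause, and the SHAM group had the operation without removal of the ovaries. Labels were available for 1 OVX rat and 1 SHAM rat, both given as 16 weeks, and they also carry the word old for the OVX rat and young for the SHAM rat. The values analysed here are positions and attributes of models that belong to the series as a whole, so no level of expression, no depth and no comparison of OVX with SHAM can be given for any gene. The methods of the study describe several sequenced rats per group, but the files analysed here hold no values for single rats, so no spread between replicates can be given.

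Each model carries a class code, which compares it with a reference annotation. Class = has every intron of a reference transcript (a full chain), and class c is contained within a reference transcript as a fragment. Class j shares at least 1 splice junction with a reference transcript and has at least 1 that differs. Single-exon models, which have no intron, can also be class = and were then counted as full chains. Each model also records whether it was found in 1 assembly or in both of 2 assemblies. A first and a second assembly could be told apart by the numbering of the models, but neither could be tied to a rat or to a group. The processing notes of the submitters name the build rn4, while the sequences carry GenBank names. The build was not settled, so positions are as deposited, on the sequence that holds the genes of the named chromosome.

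Of the 7 genes found, 5 (Dcn, Bgn, Lum, Fmod and Omd) had a transcript recorded in both assemblies, against 30.8% of all gene names. A full reference chain was present for 4 of the 7 (Dcn, Bgn, Lum and Fmod), against 38.6% of all gene names, and for each of these 4 a full-chain model was recorded in both assemblies, against 20.1%. By transcript, 5 of the 12 models were class =, 4 were class c and 3 were class j, where 15.4%, 56.1% and 25.6% of all models with a gene name had these codes. All 5 full-chain models were in both assemblies, against 50.2% of full-chain models of all genes. Contained fragments thus made up 33.3% of the models of these genes, and 6 of the 12 models were in both assemblies, against 12.2% of all models with a gene name. The family divided into 4 genes that were assembled whole and in duplicate and 3 others. The models of these 3 were contained fragments or class j, with at least 1 junction that differs from a reference transcript. These are counts over few genes and were not tested. Of the 12567 gene names, 4469 (35.6%) have the form rCG_ with a number, and 5339 equal a current RefSeq symbol. The members were found by symbol, so all gene names are an unlike set for comparison. This holds for each share or median over all gene names below.

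**Figure D1:**
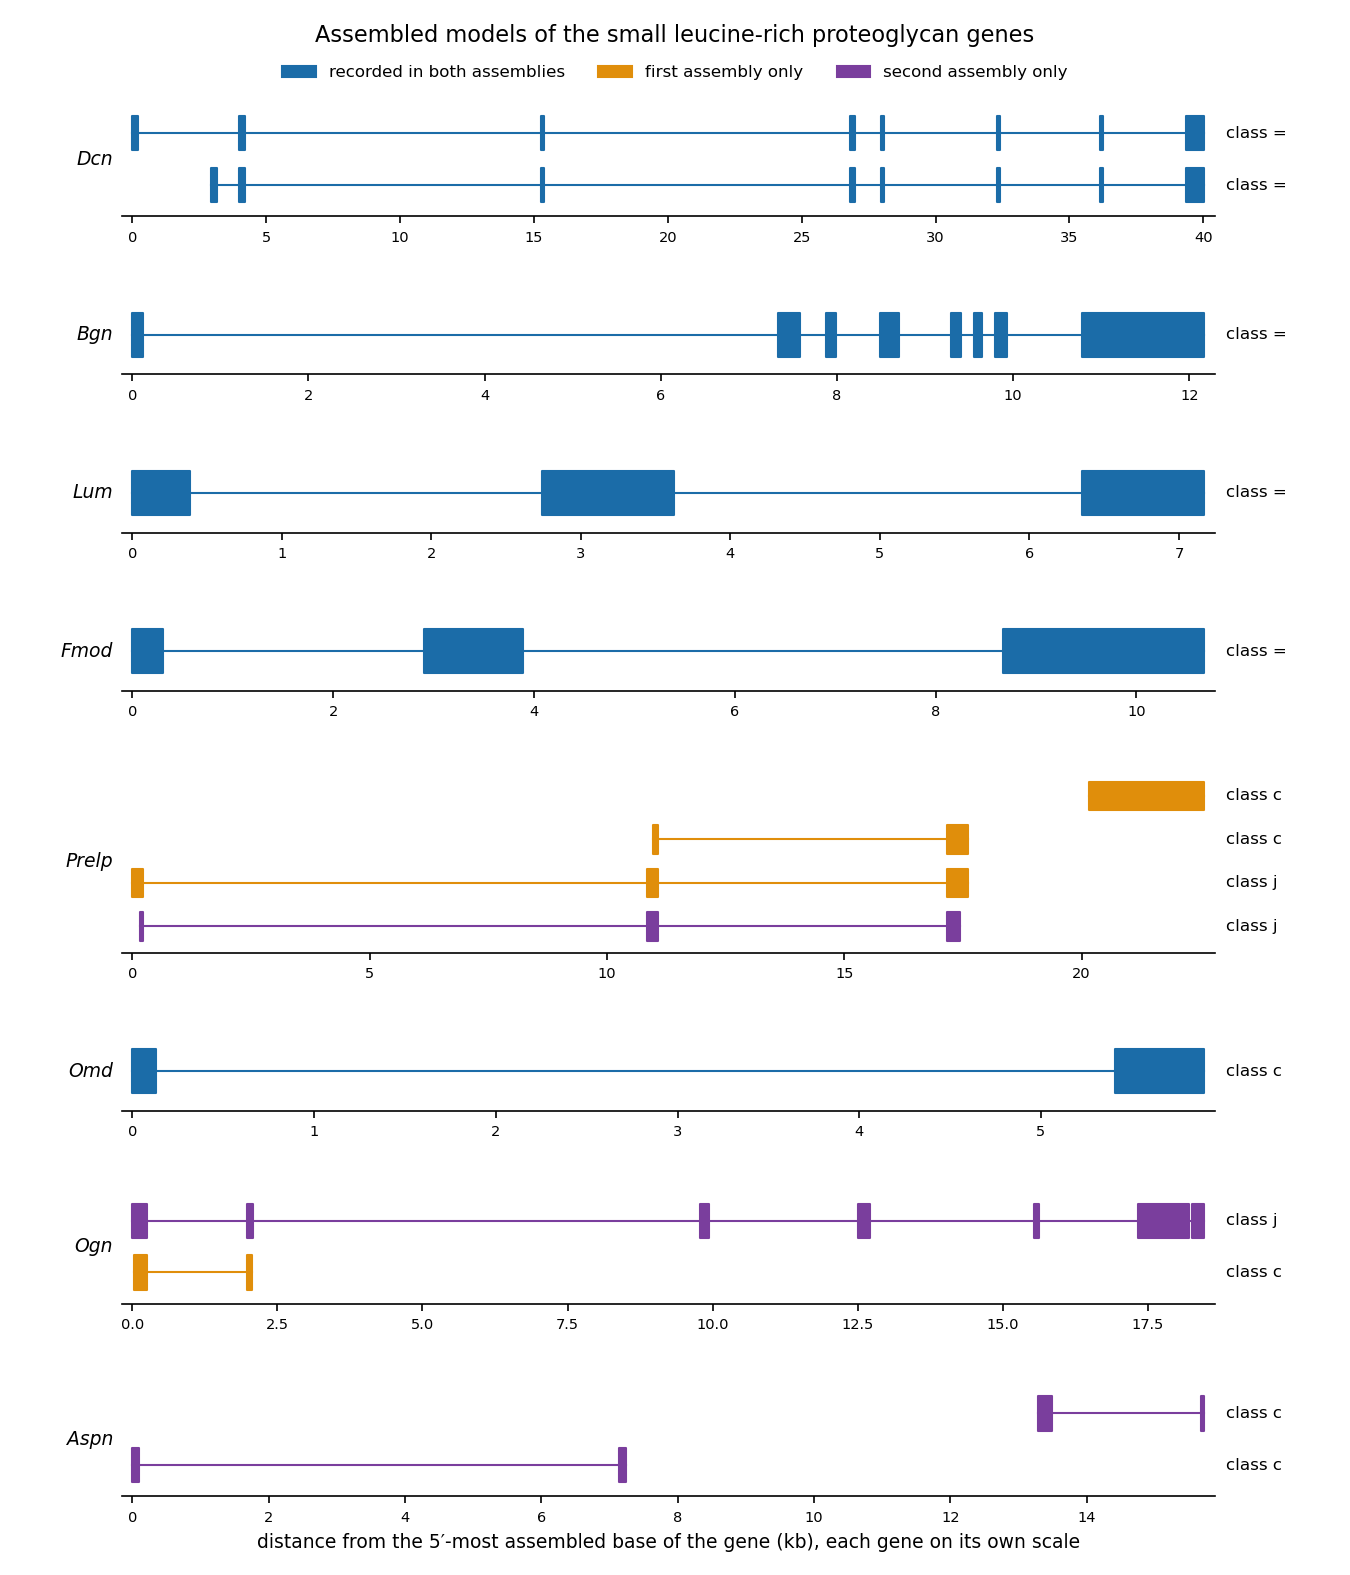
Exons (boxes) and introns (lines) of each assembled model, by distance in kb from the 5′-most assembled base of the gene, with the class code at the right and the colour giving the assembly. Dcn, Bgn, Lum and Fmod appear as complete models in both assemblies, whereas Prelp, Ogn and Aspn are split into models of 1 assembly each. Aspn is drawn from the models named LOC306805.

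Decorin, which carries a single chondroitin or dermatan sulfate chain and coats collagen fibrils, had 2 models, both class = and both recorded in both assemblies (chromosome 7, plus strand, locus XLOC_007343). The first runs from 29318468 to 29358502 and has 8 exons with a summed length of 1817 bases. The second starts 2944 bases further on, at 29321412, and has 8 exons with 1801 bases. The models differ in their first exon, of 222 and 206 bases, and share the remaining 7 exons and 6 of 7 introns base for base. Decorin was therefore assembled with alternative first exons that join the same second exon, each with a start site identifier of its own, and each was in both assemblies.

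Biglycan, the closest relative of decorin and a carrier of chondroitin or dermatan sulfate chains that is abundant in bone, had 1 model (XLOC_001515, minus strand, 136680179 to 136692348). It was class =, was recorded in both assemblies and had 8 exons with 2437 bases. This model lies on the sequence of chromosome 1, although the RefSeq annotation of GRCr8 places Bgn on the X chromosome, as it does 26 of the 707 genes on that sequence that have a current symbol.

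The decorin and biglycan models had the same number of exons and, within the gene, nearly the same exon lengths. Counted from the 5′ end, exon 3 was 113 bases in both, exon 4 was 214 bases in both, exon 6 was 94 bases in both and exon 7 was 139 bases in both. Exon 5 was 114 bases in Dcn and 111 bases in Bgn, a difference of 3 bases. So 4 of the 6 internal exons were equal in length. The larger differences were at the first, second and last exon. Exon 1 was 222 bases in the Dcn model with the more upstream start and 128 bases in Bgn. Exon 2 was 220 bases in Dcn and 252 in Bgn, and exon 8 was 701 and 1386 bases. Introns were not alike, with 11419 bases after exon 3 in Dcn and 500 bases at the same place in Bgn. Among 8122 gene names with a model of at least 4 exons, internal exons of 113 and 214 bases in a row were found in 3 names (Dcn, Bgn and rCG_61012), and exons of 94 and 139 bases in a row in 4 names (Dcn, Bgn, Reep6 and rCG_35128). Dcn and Bgn hold both runs by construction, because the runs were taken from their equal exons, and no other name held both. The runs and the names rCG_61012, rCG_35128 and Reep6 were chosen after their values were seen.

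**Figure D2:**
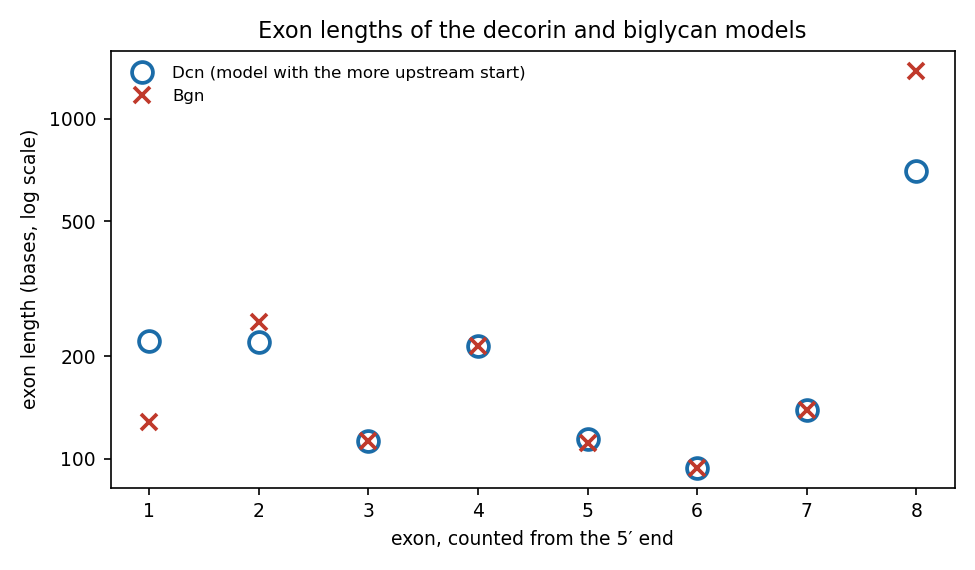
Length of each exon in bases (log scale) of the Dcn model with the more upstream start (circles) and of the Bgn model (crosses), by exon number from the 5′ end. The symbols coincide at exons 3, 4, 6 and 7, nearly so at exon 5, and part at the first, second and last exon.

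Asporin, a relative of decorin with a run of aspartate residues in place of the chain attachment, had no model under its own symbol or an older symbol. However, the name LOC306805 is made of the gene ID that RefSeq gives to Aspn, a match that was looked for after the data had been seen. With it, all 8 genes were found. LOC306805 (XLOC_014703, chromosome 17, minus strand) had 2 contained fragments of 2 exons each, one of 201 bases from 14827508 to 14834751 and one of 242 bases from 14819030 to 14821468. Both came from the second assembly. The fragment of 201 bases is the one nearer the 5′ end of the gene, and no model joined it to the other. The longest model of asporin, at 242 bases, was shorter than the longest model of each of the other 7 genes.

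Lumican and fibromodulin carry keratan sulfate and bind collagen fibrils at a shared site during fibril growth. Lumican (XLOC_007344, chromosome 7, plus strand, 29396224 to 29403392) had 1 model, class = and in both assemblies, with 3 exons of 389, 883 and 820 bases. Fibromodulin (XLOC_012386, chromosome 13, plus strand, 45821886 to 45832560) likewise had 1 model, class = and in both assemblies, with 3 exons of 304, 986 and 2002 bases. Both genes thus have few exons and a large middle exon, whereas the internal exons of Dcn and Bgn are 252 bases or shorter. A large internal exon was not limited to them, since the class j model of Ogn had one of 886 bases, followed by the gap of 47 bases described with that gene. Internal exons of all models with a gene name had a median of 121 bases, and 0.455% of 74231 distinct internal exons were at least as long as the middle exon of Lum.

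The sequence before the RefSeq start is printed for Lum and Fmod, as genes assembled whole, and for Ogn, whose first splice junction was the same in each assembly. These are the 250 bases before the start, 5′ to 3′ on the strand of the gene, from RefSeq on GRCr8, which is not the build of the models. The table had entries for 5 of the 8 genes (Lum, Fmod, Ogn, Aspn and Omd) and none for Dcn, Bgn and Prelp. Capitals mark matches on either strand to the TATA box with the letters TATAAA, to the variant with TATATA, to the CCAAT box, to the GC box with GGGCGG, to the core bound by RUNX factors with TGTGGT, or to the element of nuclear receptors, the estrogen receptor among them, with AGGTCA.
Lum (GRCr8 chr7:34245456-34245705, plus strand): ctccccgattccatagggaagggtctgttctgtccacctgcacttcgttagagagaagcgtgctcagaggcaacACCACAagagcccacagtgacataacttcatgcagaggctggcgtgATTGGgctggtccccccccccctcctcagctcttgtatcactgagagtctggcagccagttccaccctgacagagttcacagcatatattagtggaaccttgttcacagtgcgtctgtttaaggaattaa
Fmod (GRCr8 chr13:48045317-48045566, plus strand): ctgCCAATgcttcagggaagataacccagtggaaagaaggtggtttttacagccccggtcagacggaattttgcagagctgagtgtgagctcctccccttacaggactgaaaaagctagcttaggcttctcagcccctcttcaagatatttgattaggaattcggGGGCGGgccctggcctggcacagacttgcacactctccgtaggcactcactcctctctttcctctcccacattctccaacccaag
Ogn (GRCr8 chr17:15258996-15259245, minus strand): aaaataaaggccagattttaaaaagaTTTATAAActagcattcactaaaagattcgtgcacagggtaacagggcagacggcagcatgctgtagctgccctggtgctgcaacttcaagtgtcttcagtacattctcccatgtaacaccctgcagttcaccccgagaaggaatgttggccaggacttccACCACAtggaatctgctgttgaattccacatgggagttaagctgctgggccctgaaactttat

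In these windows TGTGGT was present on the opposite strand in Lum, from base -176 to -171 before the start, and in Ogn, from -63 to -58. It was thus in 2 of the 5 windows, against 14.5% of 33469 promoters of the same length. CCAAT was in 2 of 5 (Lum on the opposite strand and Fmod) against 34.0%, GGGCGG in 1 of 5 (Fmod, from -85 to -80) against 30.5%, and TATAAA in 1 of 5 (Ogn, where matches on both strands overlap) against 12.9%. AGGTCA was in 1 of 5 (Omd, from -132 to -127) against 14.1%, and TATATA in 0 of 5 against 5.45%. The Aspn window held none of the 6. A match describes the letters of the window and shows no binding.

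Prolargin, which has a basic end that binds heparan sulfate and links collagen to basement membranes, had 4 models (XLOC_012658, chromosome 13, minus strand, 45697809 to 45720392), the most of the 7 genes found. The first assembly held 3 of them: a single-exon fragment of 2418 bases, a fragment of 2 exons with 543 bases and a class j model of 3 exons with 906 bases. The second assembly held 1, a class j model of 3 exons with 570 bases. No model was shared, but the parts were. Both class j models contain an intron of 10622 bases from 45709551 to 45720172, and their second introns end 14 bases apart, at 45703233 in the first assembly and 45703219 in the second. The 2-exon fragment of the first assembly uses the same intron of 6088 bases as the class j model of the second. By intron, 2 of 3 distinct introns of Prelp were present in both assemblies, although 0 of 4 models were.

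At the 3′ end of Prelp, 2564 bases without a model separated the spliced models from the single-exon fragment, which runs from 45697809 to 45700226 in the first assembly. Within the same stretch the second assembly held a single-exon model on the opposite strand, class x (exonic overlap on the other strand), from 45697917 to 45700179. This unnamed model (XLOC_012385) has 2263 bases and lies wholly inside the fragment on the minus strand. The stretch was thus covered by 1 unspliced model in each assembly, on opposite strands. Transcription from both strands and a wrongly assigned strand cannot be told apart, since neither model has a splice junction.

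Osteomodulin, a keratan sulfate proteoglycan with an acidic end that is found mainly in mineralised tissue, had 1 model (XLOC_014702, chromosome 17, minus strand, 14793192 to 14799089). It was a contained fragment of 2 exons, 132 and 489 bases, and it was recorded in both assemblies. Among contained fragments of all named genes 4.85% were in both. Osteomodulin was the 1 gene of the 7 with a shared model and no full chain.

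Osteoglycin, also called mimecan, a short family member first described in bone, had 2 models (XLOC_014701, chromosome 17, minus strand), and they were unequal. The second assembly held a class j model from 14764214 to 14782684 with 7 exons and 1895 bases. The first assembly held a fragment of 2 exons with 290 bases, from 14780624 to 14782648, which lies within the first and second exons and their intron. The intron of 1735 bases between these exons was the same in both, and the other 5 introns were in the second assembly alone. The last intron of the class j model was 47 bases, from 14764423 to 14764469. Only 0.504% of 99836 distinct introns in the annotation were shorter than 50 bases, and their median was 1187.5 bases. Whether this short gap is a spliced intron or a feature of the alignment was not tested.

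Counted over the 7 genes, 23 of 29 distinct introns were in models of both assemblies, against 54.1% of 97387 distinct introns of all named genes. Of the other introns, 5 belonged to Ogn in the second assembly and 1 to Prelp in the first. All 8 introns of Dcn, 7 of Bgn, 2 each of Lum and Fmod and 1 of Omd were in both. When separate models in each assembly are accepted, all 7 genes were present in both assemblies, against 76.5% of gene names, so for Prelp and Ogn the assemblies differed in the models and not in the presence of the gene. LOC306805 was in the second assembly alone, as were 10.2% of gene names, while 13.3% were in the first alone.

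The assembled span of a gene, from its lowest to its highest base, was set beside the gene length in the RefSeq annotation of GRCr8. Dcn spanned 40035 bases against 40032, Bgn 12170 against 12165, Lum 7169 against 7188 and Fmod 10675 against 10618. Prelp, although in pieces, spanned 22584 bases against 23068, or 97.9%. The span was thus within 5% of the RefSeq length for 5 of the 7 genes, against 39.5% of the 5339 names with a current symbol, whose median was 91.6%. Ogn reached 89.4% and Omd 71.7%, and LOC306805 reached 64.9% of the length of Aspn. A span can be near complete without a complete model, as in Prelp.

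**Figure D3:**
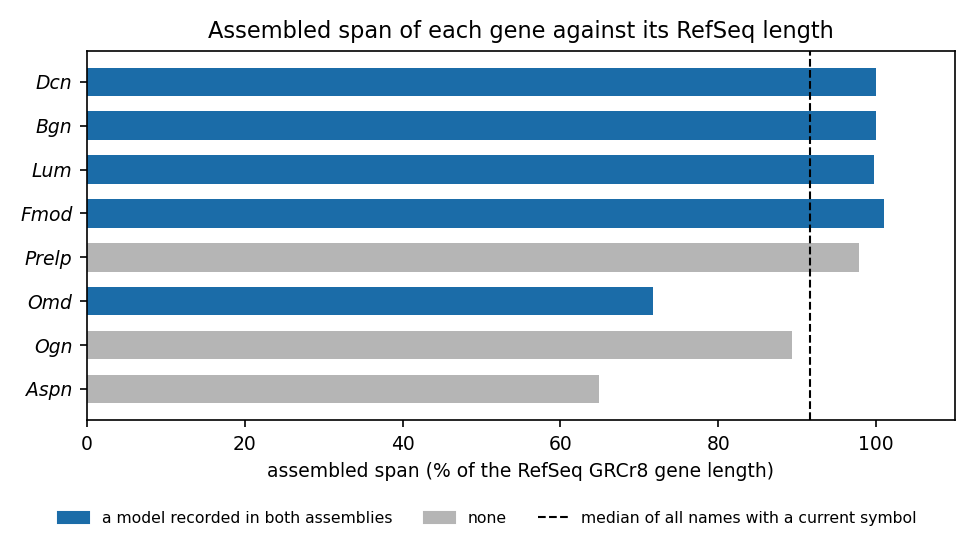
Assembled span of each gene as a percentage of its RefSeq GRCr8 gene length, with genes that had a model recorded in both assemblies in blue and the other genes in grey. The dashed line is the median of 91.6% over names with a current symbol, and Ogn, Omd and Aspn (from LOC306805) lie to its left.

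Numbers and lengths of models varied within the family. The median number of models per gene was 1, against 2 over all gene names, and the median of the largest exon number was 3, against 5. The median length of the longest model was 2092 bases, against 1000 bases (quartiles 504 and 1935), but that of Omd was 621 bases, and Prelp had 4 models. These medians over 7 genes were not tested, and all gene names include those of the rCG form. The model with the most exons had 8 in Dcn and Bgn and 7 in Ogn, against 2 or 3 in the other genes. The 7 of Ogn depend on the gap of 47 bases, and Omd and Prelp had no full chain. These are thus exon numbers of models, which can differ from those of the genes.

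Most of the genes lay in runs on 3 chromosomes. On chromosome 7, Dcn, Lum and keratocan (Kera, a corneal keratan sulfate proteoglycan of the same family) followed each other on the plus strand within 118753 bases, with 37721 bases between Dcn and Lum and 31649 bases between Lum and Kera. Kera had 1 contained fragment of 767 bases, in the second assembly. No other gene name lay inside this run. The next named genes outward were far off, rCG_48863 at 926590 bases before Dcn and Atp2b1, a plasma membrane calcium pump, at 1316044 bases after Kera.

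On chromosome 17, Ogn, Omd and LOC306805 followed each other on the minus strand within 70538 bases, with 10507 bases between Ogn and Omd and 19940 bases between Omd and LOC306805. RefSeq places Ogn, Omd and Aspn next to each other on GRCr8 too, so the place of LOC306805 is that of Aspn. The outer neighbours were Nol8, a nucleolar protein gene, at 19331 bases and rCG_44144 at 18119 bases. On chromosome 13, Prelp and Fmod were neighbours on opposite strands that face away from each other, 101493 bases apart, with rCG_46042 at 112137 bases beyond Prelp and Btg2, an antiproliferative gene, at 27619 bases beyond Fmod. Bgn stood alone, 7132 bases from Atp2b3, another calcium pump gene, and 26690 bases from a model named by an older symbol of Haus7, a mitotic spindle gene. RefSeq gives these as the protein-coding neighbours of Bgn on the X chromosome too. Btg2 is the protein-coding neighbour of Fmod on GRCr8 too. The outer neighbours at the other ends of the runs differed from the nearest genes listed as protein-coding on GRCr8. Those are Btg1 before Dcn, Epyc after Kera, Cenpp beside Ogn, Optc beside Prelp and Rpl6-ps6 beside Aspn. The symbol Rpl6-ps6 has the ending of a pseudogene name, although it is listed as coding. The outer distances are thus those between assembled names.

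**Figure D4:**
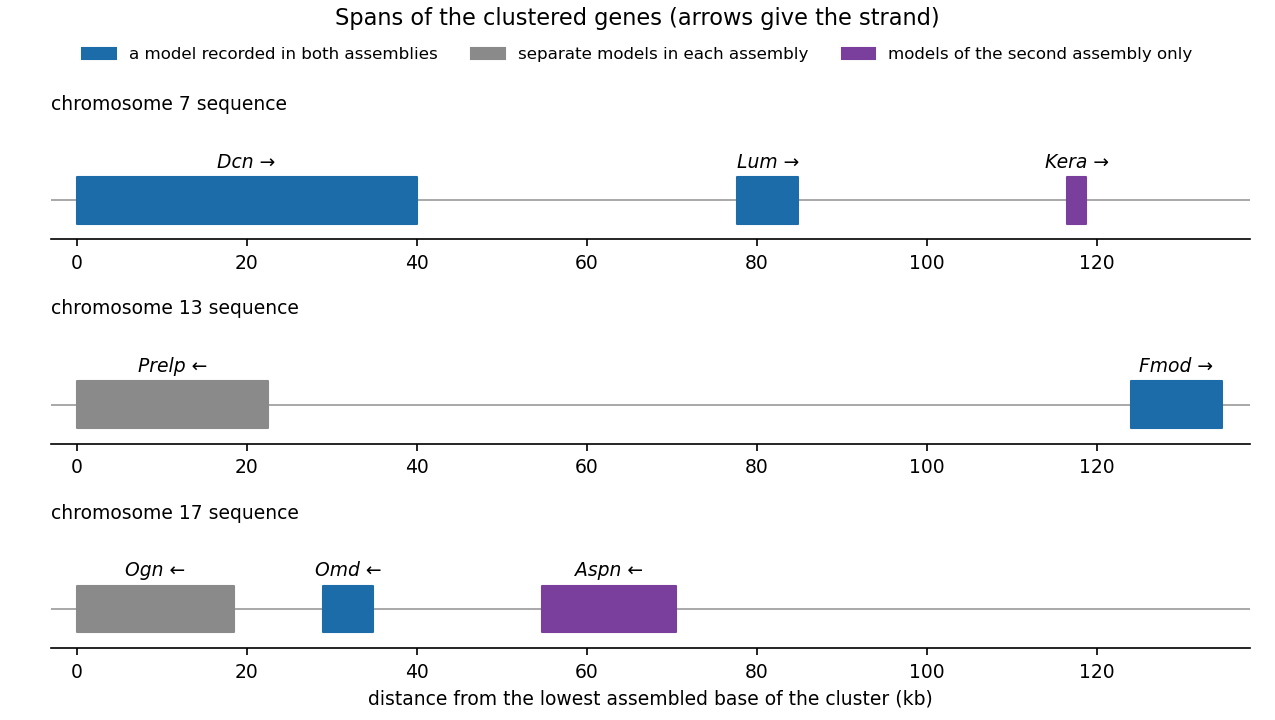
Spans of the family genes that lie in runs, by distance in kb from the lowest assembled base of the run, with arrows for the strand. Colours give genes with a model recorded in both assemblies, with separate models in each, or with models of the second assembly alone (Kera and Aspn, the latter from LOC306805).

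In the chromosome 7 run, the adjacent Dcn and Lum were both complete and shared, while Kera was a fragment of 1 assembly. In the chromosome 17 run, Omd was a shared fragment, Ogn a long model of 1 assembly and LOC306805 a pair of short fragments of the same assembly. The median distance from a member to the nearest named gene was 27619 bases, against 10016 bases over all gene names, of which 933 overlapped another and were set at 0. With unnamed loci included, the medians were 10507 bases for the members and 5963 bases over all gene names. With named genes of the same strand alone, they were 31649 and 33535 bases, so the longer distance of the members was not present under that choice. These differences were not tested.

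Other genes of the family were mostly not found by name, with 2 of 8 present (Kera and Chad). Chondroadherin (Chad), a cartilage protein of the family, had 1 model with 4 exons and 1674 bases that was class = and in both assemblies. Of 20 enzymes that build and sulfate chondroitin and dermatan sulfate chains, 7 were found by symbol. Among the 3 of these with a full chain is B3galt6, whose model has a single exon and so no intron. Of the 7, 2 (28.6%) had a shared model and 3 (42.9%) a full chain, close to the 30.8% and 38.6% of all gene names. The same shares of all gene names are the background for each list that follows. They are shares of names already among the models, so the number of genes found on a list has no background share. The xylosyltransferases Xylt1 and Xylt2, which start the chain on the core protein, had 6 models each, and the uronyl sulfotransferase Ust had 3. None of these models was in both assemblies or had a full chain. With older symbols 14 of the 20 were found, so the count for these enzymes depends on the age of the gene names. Of 7 enzymes for keratan sulfate and tyrosine sulfation, 1 was found, the tyrosylprotein sulfotransferase Tpst2, with 2 models of which 1 had a full chain.

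Collagens and the enzymes that cross-link them, the partners of these proteoglycans in the fibril, were found for 12 of 15 genes, of which 8 (66.7%) had a shared model and 4 (33.3%) a full chain. The most models were those of the fibril-associated Col12a1 (13) and Col14a1 (10) and of the microfibrillar Col6a3 (12), and 1 of these models, from Col14a1, was shared. Lox, Loxl1 and Plod2, which modify lysines for cross-links, were not found. Of 12 growth factors and receptors that bind these proteoglycans, 9 were found, 2 with a shared model and 2 with a full chain. The most models here were those of the receptors Igf1r (6) and Egfr (5) and of the growth factor Bmp2 (2), whereas Tlr2, Met and Lrp1 were not found.

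Of 8 proteases that process these proteoglycans, 6 were found, 1 with a shared model and 4 with a full chain. Bmp1, the procollagen C-proteinase that also trims the biglycan propeptide, had 7 models, 2 of them shared, and the matrix metalloproteinases Mmp13 and Mmp14 had 3 each. Tll1 and Mmp3 were not found. Of 14 large proteoglycans and hyaluronan-linked genes, 9 were found, 6 with a shared model and 4 with a full chain. Agrn had 7 models, and the hyaluronan receptor Cd44 and the lubricin gene Prg4 had 4 each. Vcan, Acan, Hspg2, Srgn and Has2 were not found by symbol, and with older symbols 12 of the 14 were found. The 5 of 7 family members with a shared model stood beside 1 of 2 other family genes, 8 of 12 collagens and cross-linking enzymes, 6 of 9 large proteoglycans, 1 of 6 proteases, 2 of 7 chondroitin and dermatan sulfate enzymes, 2 of 9 growth factors and receptors and 0 of 1 keratan sulfate and tyrosine sulfation enzymes. Over all gene names the share was 30.8%, and the differences between lists were not tested. Genes that were found only under an older symbol are left out of these counts.

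**Figure D5:**
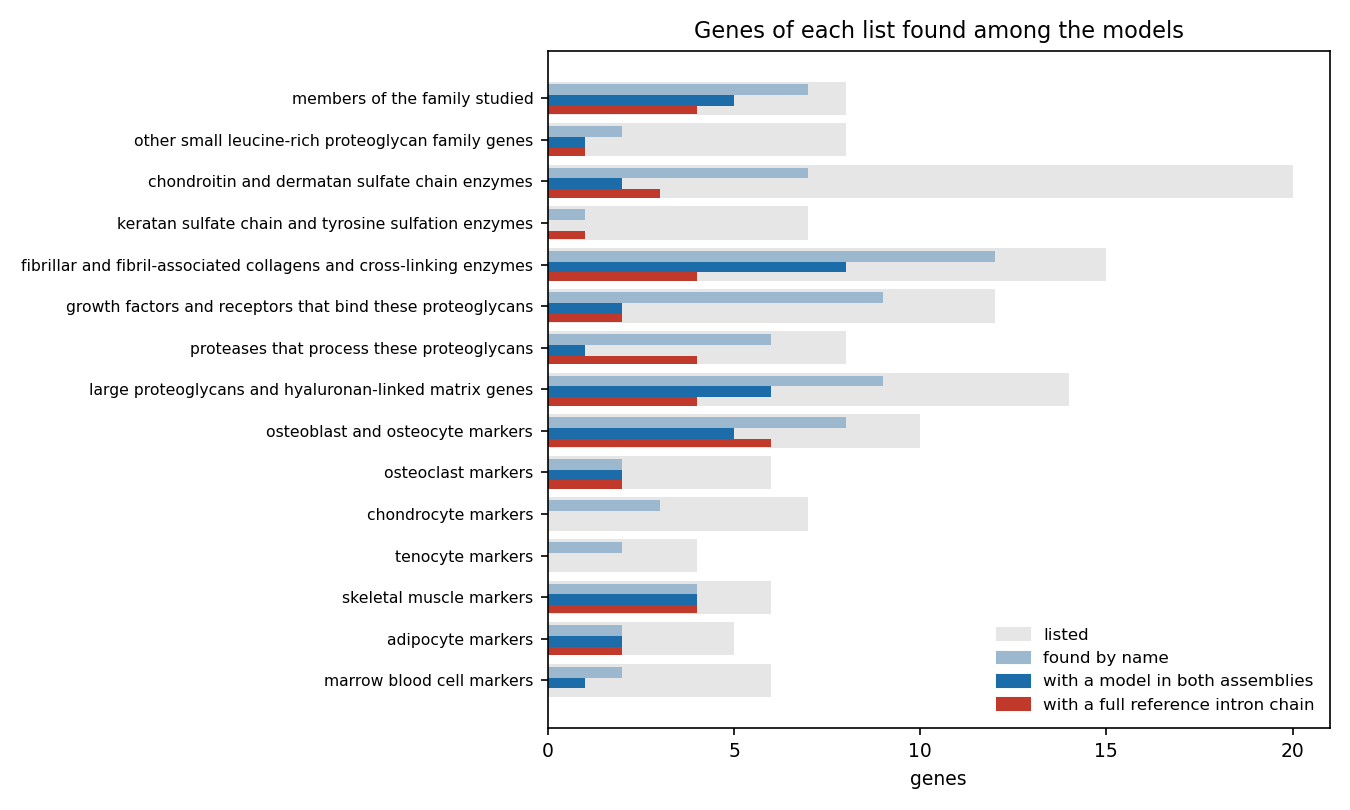
Number of genes listed (light grey), found by name (pale blue), with a model in both assemblies (blue) and with a full reference chain (red). Full chains include single-exon models of class =. Rows are the 8 members, 7 lists of related genes and 7 lists of cell type markers. The member row and the collagen row reach most of their length in pale blue, while the chain enzyme rows do not. With older symbols, which are not drawn, 14 of the 20 chondroitin and dermatan sulfate enzymes were found, and still 1 of the 7 keratan sulfate and tyrosine sulfation enzymes.

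The tissue label was checked against marker genes, where the background over all gene names was 30.8% with a shared model, 38.6% with a full chain and 20.1% with a shared full chain. Of 10 markers of osteoblasts and osteocytes, 8 were found, 5 (62.5%) with a shared model and 6 (75%) with a full chain, Spp1, Ibsp, Alpl, Dmp1 and Sost among the latter. Bglap and Mepe were not found by symbol. Of 6 osteoclast markers, Acp5 and Ctsk were found, both with a shared full-chain model. Markers of other tissues on or in the femur were present too, with 4 of 6 for skeletal muscle (Acta1, Ckm, Tnnt3 and Mb), all with a shared full chain, 2 of 5 for adipocytes (Adipoq and Cfd), likewise shared and full, and 2 of 6 for marrow blood cells (Mpo and Alas2), of which Alas2 had shared models. Of 7 chondrocyte markers 3 were found (Col2a1, Comp and Matn3) and of 4 tenocyte markers 2 (Tnmd and Thbs4), with 0 shared models and 0 full chains in either list. The cartilage gene Chad, which is not on the chondrocyte list, did have a shared full-chain model. With older symbols the counts found were 9 of 10 for osteoblasts and osteocytes, 3 of 6 for osteoclasts, 4 of 7 for chondrocytes (Acan added) and 3 of 5 for adipocytes, and those of the other 3 marker lists did not change. Decorin, biglycan, lumican and fibromodulin are known also from tendon, cartilage and the connective tissue of muscle, and the part of each tissue in their models was not tested.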

How the data were processed

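The authors sequenced RNA from femurs of OVX and SHAM rats. The notes of the submitters name FastQC, HISAT2, StringTie, featureCounts and the build rn4, without versions. The deposited files used here give, for each assembled model, its position and its attributes, and they list loci named as new genes. They hold no counts, expression values or coverage, so depth is unknown and no group comparison or test was made. Positions were read 1-based. Members and lists were chosen with earlier results of these data known. Named were all members, the nearest named gene on each side, and in each list of related genes those not found where 5 or fewer and the 3 with the most models (ties by symbol). Names were matched to RefSeq symbols of GRCr8, and lengths, neighbours and promoters came from there. An older symbol counted where it was no current symbol and belonged to 1 gene. None of the members was on the list of new genes. Counts were described beside shares over all gene names or models, without a test. Reading of the models was tested on a small made-up annotation. Python 3.11.15, numpy 2.4.6, scipy 1.17.1 and matplotlib 3.10.9 were used.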

Additional observations from a re-analysis of the deposited data

How the results depend on the processing

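Of 16 alternatives, the 14 for counts and shares left the count within 1.5 times the value given or the share within its 95% binomial interval. The other 2 are for a distance, which has no such interval, so that any change is given. The limits for counts and shares are loose. The number of members found could not rise to 1.5 times its value among 8 genes. The interval rests on few models and treats models of the same gene as independent. Staying within these limits therefore says little. The number of members found was 6 with names taken exactly as written, which loses Ogn, 7 with older symbols and 8 with the gene ID in the name, an alternative chosen after seeing the data. The number of members with a transcript in both assemblies ranged from 5 to 7, and with a full chain from 4 to 5 when fragments that lack 1 exon were counted. The median distance from a member to the nearest gene moved from 27619 bases to 10507 bases when all loci counted, since the unnamed antisense model overlaps Prelp and sets its distance to 0, and to 31649 bases with named genes of the same strand, where the median over all gene names was 33535 bases. Of 84 genes on the related lists, 46 were found by symbol and 56 with older symbols. No paired analysis was possible because no sample has values of its own. The unknown depth limits each statement on a missing or incomplete model.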
